A study of Mus musculus with 5 samples.

Results

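The CC chemokine ligand genes are described here in bulk RNA sequencing of the tumor-bearing mouse brain with and without ultrasound-mediated blood–brain barrier opening (UMBO). The set holds 10 genes, taken as a list of symbols: Ccl2, Ccl3, Ccl4, Ccl5, Ccl6, Ccl7, Ccl8, Ccl9, Ccl12 and Ccl22. All 10 were found among the 55573 genes of the deposited tables, and all 10 were among the 23592 genes with enough counts to be tested. On average every one of the 10 was higher with UMBO, but none passed the test after adjustment over all genes. Ccl3, Ccl6 and Ccl9 were higher in each UMBO library than in any vehicle library, while for the other 7 UMBO replicate 1 lay within the range of the vehicle libraries.

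The RNA came from the right hemisphere of female C57BL/6 mice that carried GL261 cells, a mouse glioma line marked with luciferase and mKate2, implanted in the right caudate-putamen when the mice were 7 to 8 weeks old. The vehicle group (3 libraries) received the antibody dilution buffer alone, and the UMBO group (2 libraries) received pulsed ultrasound with circulating microbubbles, which opens the barrier for a time. Whether the vehicle mice also received microbubbles is not given in the sources used here. Treatment was given on days 21 and 24 and the tissue was taken 24 h after the last session. Tumor cells of a single line, brain cells and cells of the blood all share each library, so a lower value from fewer cells of a type and one from less RNA per cell cannot be told apart.

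CC chemokines are small secreted proteins that draw leukocytes along a gradient by way of G protein-coupled receptors. In the brain they are made by microglia, infiltrating macrophages, astrocytes, endothelium and tumor cells. Ccl2, Ccl7 and Ccl12 act mainly through Ccr2 and bring monocytes in from the blood. Ccl3, Ccl5, Ccl6 and Ccl9 act through Ccr1, and Ccl4 attracts macrophages and lymphocytes. Ccl8 of the mouse acts through Ccr8, and Ccl22 acts through Ccr4 and draws regulatory T cells.

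Of the 10 genes, 9 lie in a pair of clusters on chromosome 11 of GRCm38. The first spans 81.2 kb and holds, in this order, Ccl2 (82035571 to 82037453), Ccl7 (82045712 to 82047525), Ccl12 (82101845 to 82103400) and Ccl8 (82115185 to 82116799), all on the plus strand. The second spans 139 kb and holds Ccl5 (83525778 to 83530518), Ccl9 (83572919 to 83578636), Ccl6 (83587882 to 83593087) and Ccl3 (83647844 to 83649355) on the minus strand, followed by Ccl4 (83662584 to 83664683) on the plus strand. Ccl22 lies apart on chromosome 8 (94745590 to 94751699, plus strand). The exons of the 10 genes overlap no other gene's exons. No stretch of 100 bases of any of their transcripts is shared with another gene.

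Promoter sequence for 6 of the 10 genes was found in the RefSeq table (GRCm38.p6): Ccl3, Ccl6, Ccl8, Ccl9, Ccl12 and Ccl22. The 150 bases before the RefSeq start are shown for 5 of them. Ccl3, Ccl6 and Ccl9 are shown because their UMBO and vehicle libraries did not overlap, and Ccl8 and Ccl12 because they are neighbors whose windows were the most alike and whose libraries did overlap. Sequences run 5′ to 3′ on the gene's own strand, and capitals mark the letters TATAA read on that strand.
Ccl3 (chr11:83649379-83649528, minus strand): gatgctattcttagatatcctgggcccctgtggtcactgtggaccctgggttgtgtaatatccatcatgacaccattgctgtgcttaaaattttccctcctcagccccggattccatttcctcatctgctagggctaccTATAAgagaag
Ccl6 (chr11:83593088-83593237, minus strand): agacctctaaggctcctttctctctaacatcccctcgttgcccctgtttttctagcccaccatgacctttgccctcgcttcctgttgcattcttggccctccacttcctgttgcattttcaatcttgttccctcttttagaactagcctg
Ccl9 (chr11:83578637-83578786, minus strand): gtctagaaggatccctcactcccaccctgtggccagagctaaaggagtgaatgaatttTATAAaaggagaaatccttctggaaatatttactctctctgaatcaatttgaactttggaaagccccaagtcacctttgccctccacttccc
Ccl8 (chr11:82115035-82115184, plus strand): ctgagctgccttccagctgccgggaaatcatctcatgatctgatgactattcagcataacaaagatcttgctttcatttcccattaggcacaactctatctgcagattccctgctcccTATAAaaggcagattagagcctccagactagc
Ccl12 (chr11:82101695-82101844, plus strand): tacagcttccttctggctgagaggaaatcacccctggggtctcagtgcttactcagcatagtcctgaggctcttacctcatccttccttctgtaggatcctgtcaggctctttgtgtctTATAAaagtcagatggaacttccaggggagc

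TATAA, the core letters of the TATA box, stood on the gene's strand in 4 of the 6 windows, against 9.99% of the 32851 windows of the same length. On either strand it stood in the same 4 windows, against 14.2% of all windows. In Ccl9 and Ccl12 the match on the opposite strand overlaps the one in capitals. The match began 31 bases before the start in Ccl12, 32 in Ccl8, 92 in Ccl9 and 11 in Ccl3, whose RefSeq start lies upstream of the start used for its coordinates above. The windows of Ccl8 and Ccl12 were identical at 100 of 161 aligned positions (62.1%), and the other 14 pairs at 46.4% to 52.7%. Other letters were searched on both strands. The NF-kappa-B letters GGGNNNTTCC were found in 1 of the 6 windows (Ccl9) and in 3.05% of all windows. The AP-1 letters TGANTCA were also found in 1 of the 6 (Ccl9) and in 4.24% of all windows. The letters TTTCNNTTTC of the interferon response element were in 0 of the 6 and in 1.59% of all windows. None of these letter strings stood in all 3 of the windows of Ccl3, Ccl6 and Ccl9.

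Libraries held 59736771 to 86164159 counts, and the smallest count of any of the 10 genes in a library was 13 (Ccl8, vehicle replicate 1). The labelled tissue was checked on its markers, and all 10 neuronal, 7 astrocytic and 6 oligodendrocytic genes passed the filter on low counts. UMBO replicate 2 stood apart from the other 4 libraries. Its summed level of 10 neuronal genes was 2662 CPM (counts scaled to a common library size, normalized with the TMM factors of edgeR), against 5517 in UMBO replicate 1 and 5338 to 8169 in the vehicle libraries. Its summed level of 10 proliferation genes was 478 CPM, against 118 in UMBO replicate 1 and 36.8 to 110 in the vehicle libraries, and 10 of these 10 genes were higher at an unadjusted p under 0.05 by edgeR, against 5.3% of all genes tested. The fold changes below are therefore also given without that library.

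The design asks what opening the barrier, with no antibody, does to expression in the tumor-bearing hemisphere. UMBO was compared with vehicle over all 23592 genes with edgeR's quasi-likelihood test. With Benjamini-Hochberg adjustment the test called 0 genes (0.0%), the smallest adjusted p was 0.497, and 0 of the 10 CC ligands passed. At an unadjusted p under 0.05, 5 of the 10 were higher with UMBO (Ccl3, Ccl4, Ccl6, Ccl9 and Ccl12) against 5.3% of all genes, and 0 were lower against 2.06%. For 3 of the 10 the UMBO libraries did not overlap with the vehicle libraries and were higher, against 11.5% of all genes. Leaving out vehicle replicate 2 made this count 8 (30.8% of all genes), and leaving out UMBO replicate 1 made it 10 (42.5%). The log2 fold change (log2FC) is UMBO minus vehicle, fitted by edgeR and given with an approximate standard error (SE). Its median over the 10 was 2.51, beside 0.01 over all genes tested. Without UMBO replicate 2 that median was 0.53, with 6 genes higher and 4 lower. Without UMBO replicate 1, edgeR's adjusted p called 7 of the 10 and 10.1% of all genes as higher, a fit with 1 UMBO library that was assumed to vary like the vehicle libraries. The unadjusted count was 8 without UMBO replicate 1, where 21.4% of all genes were higher at that threshold. It was 3 without UMBO replicate 2, vehicle replicate 1 or vehicle replicate 3, where 1.15%, 0.838% and 0.945% were. Under DESeq2's Wald test, 2 of the 10 (Ccl3 and Ccl9) passed the adjusted threshold, against 0.112% of genes called as higher.

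**Figure D1:**
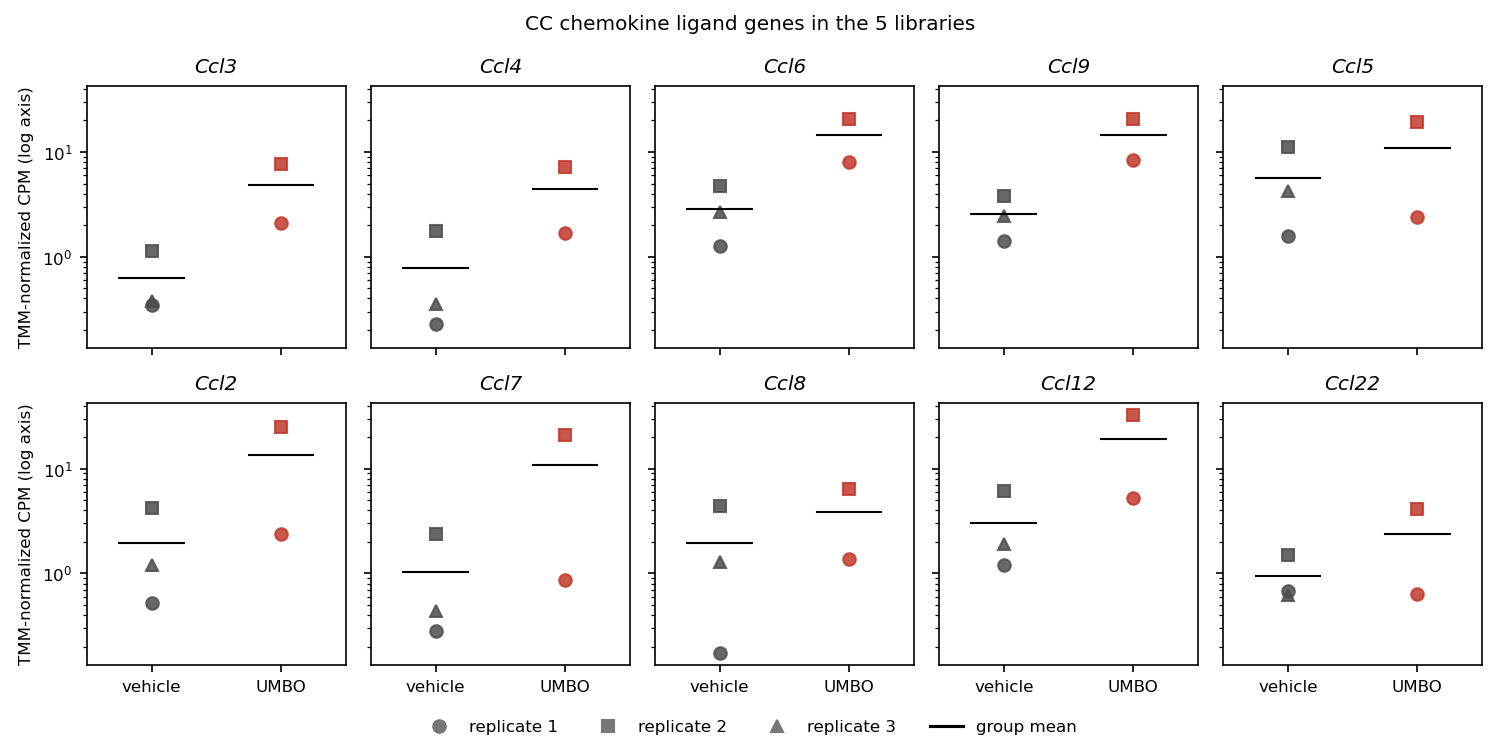
TMM-normalized CPM (log axis) of the 10 CC chemokine ligand genes in the 3 vehicle libraries (grey) and 2 UMBO libraries (red); symbols give the replicate number and horizontal lines the group mean. The 2 red symbols lie above all grey ones for Ccl3, Ccl6 and Ccl9 only, and vehicle replicate 2 is the highest vehicle library for all 10 genes.

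The 4 neighbors Ccl9, Ccl6, Ccl3 and Ccl4 were those most alike between the UMBO libraries, with replicate 2 at 2.45 to 4.31 times replicate 1, against 4.62 to 24.2 times for the other 6 genes. The least of these ratios were those of Ccl9 and Ccl6, neighboring genes of rodents whose products bind Ccr1 and attract monocytes and macrophages. The level of Ccl9 was 1.42, 3.84 and 2.46 CPM in vehicle replicates 1 to 3, and 8.36 and 20.5 CPM in UMBO replicates 1 and 2. Both UMBO libraries were thus above all vehicle libraries, and UMBO replicate 1 was 2.18 times the highest of them. The mean was 2.57 ± 1.22 CPM (SD, n = 3) in the vehicle group against 14.4 ± 8.57 (SD, n = 2) after UMBO, 5.61-fold higher. The log2FC of 2.49 (SE 0.542) had an adjusted p of 0.497 by edgeR and 0.0114 by DESeq2. Without UMBO replicate 2 the log2FC was 1.70.

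Ccl6 followed the same order of libraries. Its level was 1.26, 4.70 and 2.65 CPM with vehicle and 7.99 and 20.8 CPM with UMBO, without overlap. UMBO replicate 1 stood at 1.70 times vehicle replicate 2. The fitted difference was 5.01-fold, a log2FC of 2.32 (SE 0.634), with an adjusted p of 0.497 by edgeR and 0.0866 by DESeq2. The log2FC was 1.48 without UMBO replicate 2.

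Ccl3, an early product of activated microglia and macrophages, was among the rarer of the 10. It was at 0.348, 1.14 and 0.378 CPM with vehicle (26, 77 and 32 counts) and at 2.12 and 7.65 CPM with UMBO (181 and 501 counts). The groups did not overlap, and UMBO replicate 1 was at 1.85 times the highest vehicle library. UMBO was 7.85-fold higher (log2FC 2.97, SE 0.758), with an adjusted p of 0.497 by edgeR and 0.0263 by DESeq2. This log2FC was 1.77 without UMBO replicate 2. Ccl4, its close relative next to it on the opposite strand, was at 0.227, 1.75 and 0.354 CPM with vehicle and 1.69 and 7.25 CPM with UMBO. UMBO replicate 1 was a little below vehicle replicate 2 (0.962 times), so the groups of Ccl4 overlapped. Its log2FC was 2.53 (SE 1.01; adjusted p 0.497 by edgeR, 0.262 by DESeq2), and 1.12 without UMBO replicate 2.

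Set against the vehicle mean on a log2 scale, these 4 genes had a median of 1.73 in replicate 1 and 3.40 in replicate 2 of the UMBO group. For vehicle replicates 1 to 3 the same median was -0.86, 0.98 and -0.21. Summed markers of microglia had the same order of libraries as Ccl3, Ccl6 and Ccl9. Of 10 microglial genes, 8 were higher with UMBO, 6 of them at an unadjusted p under 0.05 by edgeR, against 5.3% of all genes. Their summed level was 377 to 549 CPM with vehicle and 729 and 879 CPM with UMBO, and none was at 0 in any library. The neutrophil list, of which 6 of 10 genes were tested, was at 9.80 to 17.0 CPM with vehicle and 22.4 and 30.9 CPM with UMBO. Csf3r made up most of it. Without Csf3r the sum was 0.762, 2.12 and 0.780 CPM with vehicle and 1.35 and 6.75 CPM with UMBO, so the groups overlapped. Ly6g, a defining marker of neutrophils, was at or near 0 in all libraries (0 to 0.0445 CPM). The part of these cells in the levels of the chemokines was not tested.

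**Figure D2:**
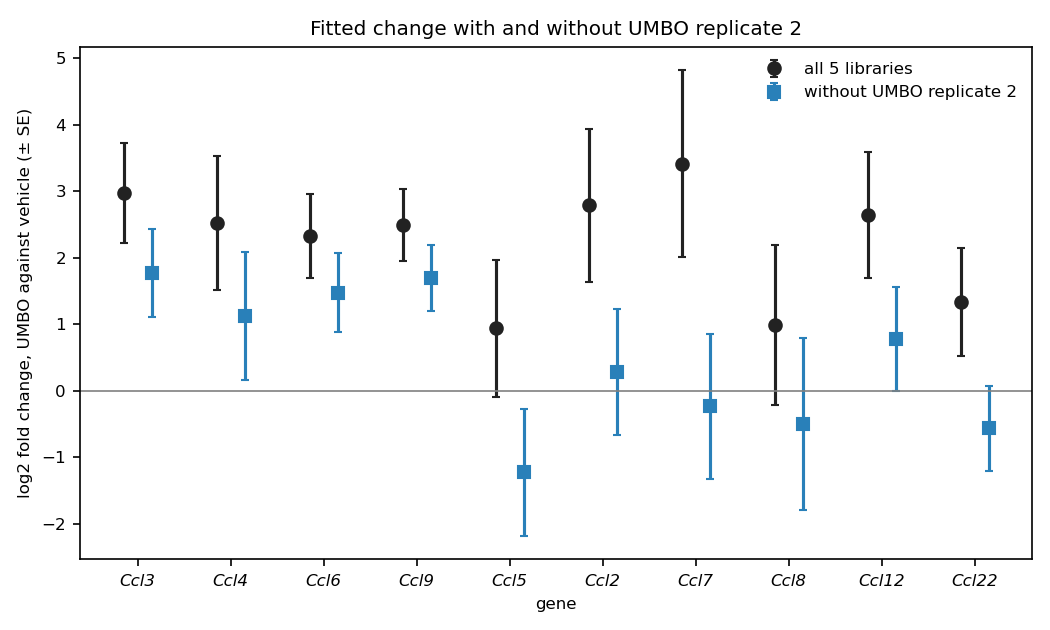
Fitted log2FC of UMBO against vehicle (± SE) for each of the 10 genes, from all 5 libraries (black circles) and without UMBO replicate 2 (blue squares). Without that library Ccl3, Ccl4, Ccl6 and Ccl9 stay between 1.12 and 1.77, and Ccl5, Ccl7, Ccl8 and Ccl22 turn negative.

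Ccl5, which attracts T cells and other leukocytes and is itself made in quantity by activated T and NK cells, lies at the end of the same cluster but did not follow its 4 neighbors. Its level was 1.58, 11.2 and 4.24 CPM with vehicle and 2.42 and 19.4 CPM with UMBO. UMBO replicate 1 was lower than vehicle replicates 2 and 3, at 0.216 times the higher of them. UMBO minus vehicle gave a log2FC of 0.94 (SE 1.03) and an adjusted p of 0.627 by edgeR and 0.631 by DESeq2. The sign turned without UMBO replicate 2, to a log2FC of -1.23. T cell markers were compared beside it. All 10 genes of that list were tested, 9 were higher and 1 lower. Of them 0 had an unadjusted p under 0.05 by edgeR, against 7.37% of all genes. The summed level of the list was 21.3, 36.2 and 22.1 CPM with vehicle and 14.4 and 51.5 CPM with UMBO. Cd4 was the leading gene of this sum (14.6, 14.0 and 7.31 CPM against 4.56 and 8.31). Without Cd4 the sum was 6.70, 22.1 and 14.8 CPM with vehicle and 9.86 and 43.2 CPM with UMBO, the order of libraries of Ccl5. The 8 NK cell genes were at 3.92, 14.0 and 6.37 CPM with vehicle and at 8.28 and 47.5 CPM with UMBO. No gene of either list was at 0 in all libraries, and their part in the level of Ccl5 was not tested.

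The genes of the other cluster, Ccl2, Ccl7, Ccl12 and Ccl8, spread widely between libraries of one group. Ccl2, the main attractant of blood monocytes, was at 0.522, 4.18 and 1.21 CPM with vehicle and 2.39 and 24.8 CPM with UMBO. UMBO replicate 2 was 10.4 times UMBO replicate 1, which itself lay between vehicle replicates 3 and 2. The log2FC of 2.79 (SE 1.15) had an adjusted p of 0.497 by edgeR and 0.255 by DESeq2, and it was 0.28 without UMBO replicate 2. Ccl7, a second ligand of Ccr2, was at 0.281, 2.36 and 0.437 CPM with vehicle and 0.866 and 21.0 CPM with UMBO. With a 24.2-fold difference between its UMBO libraries, Ccl7 had both the highest mean difference of the 10, a log2FC of 3.42, and the highest SE, 1.40. Its adjusted p was 0.497 by edgeR and 0.413 by DESeq2, and without UMBO replicate 2 the sign turned, to -0.24.

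Ccl12, another Ccr2 ligand of the mouse, reached the highest CPM of the 10 in any library. It was at 1.19, 6.05 and 1.90 CPM with vehicle and 5.22 and 32.8 CPM with UMBO. UMBO replicate 1 was well above vehicle replicates 1 and 3 and 0.862 times vehicle replicate 2. Ccl12 had a log2FC of 2.64 (SE 0.946), an adjusted p of 0.497 by edgeR and one of 0.184 by DESeq2. Its log2FC was 0.78 without UMBO replicate 2. Ccl8, a ligand of Ccr8 in the mouse, was at 0.174, 4.41 and 1.29 CPM with vehicle and 1.38 and 6.38 CPM with UMBO. Its vehicle libraries alone differed 25.3-fold between replicates 1 and 2, more than the UMBO libraries of any of the 10 genes. The log2FC of 0.99 (SE 1.20; adjusted p 0.659 by edgeR and by DESeq2) was -0.50 without UMBO replicate 2. The promoter windows of Ccl8 and Ccl12 shown above were the most alike pair among the genes with a window. The fitted difference was 6.24-fold for Ccl12 and 1.98-fold for Ccl8. Whether these differences are unlike, or are related to the promoters, was not tested.

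The median log2 value of this cluster against the vehicle mean was 0.59 and 3.94 with UMBO, beside -1.28, 1.67 and -0.27 with vehicle. The summed CPM of the 4 genes was 8.62 times higher in UMBO replicate 2 than in UMBO replicate 1, against 2.79 times for Ccl9, Ccl6, Ccl3 and Ccl4 together. The sum of markers of monocytes and macrophages was also far higher in UMBO replicate 2 than in UMBO replicate 1. Not every marker followed. Vcan was lower in UMBO replicate 2 than in replicate 1 (23.9 against 33.9 CPM), and Itga4 differed less (24.2 against 19.4 CPM). All 10 markers were tested and higher with UMBO, 1 of them at an unadjusted p under 0.05 (Chil3), against 5.3% of all genes. Their summed level was 57.0, 92.4 and 70.8 CPM with vehicle and 78.4 and 210 CPM with UMBO. Ly6c2, which marks monocytes of the blood, was at 0.628, 3.68 and 1.06 CPM with vehicle and 1.58 and 26.0 CPM with UMBO. None of these markers was at 0 in all libraries, and their part in the levels of the chemokines was not tested.

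Ccl22, made mainly by dendritic cells and macrophages, was the rarest of the 10 relative to transcript length. It was at 0.682, 1.51 and 0.626 CPM with vehicle and 0.632 and 4.12 CPM with UMBO. UMBO replicate 1 was thus at the level of vehicle replicates 1 and 3, and UMBO replicate 2 was above all others. Its log2FC was 1.34 (SE 0.811; adjusted p 0.497 by edgeR, 0.486 by DESeq2), and -0.57 without UMBO replicate 2. The summed level of 8 dendritic cell genes was 195 to 266 CPM with vehicle and 210 and 249 CPM with UMBO, most of it from Fscn1. Of the 8, 5 were higher and 3 lower, 0 of them at an unadjusted p under 0.05 by edgeR, against 7.37% of all genes. Without Fscn1 the sum was 25.2, 22.6 and 29.8 CPM with vehicle and 22.2 and 20.1 CPM with UMBO, and the part of these cells in the level of Ccl22 was not tested.

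**Figure D3:**
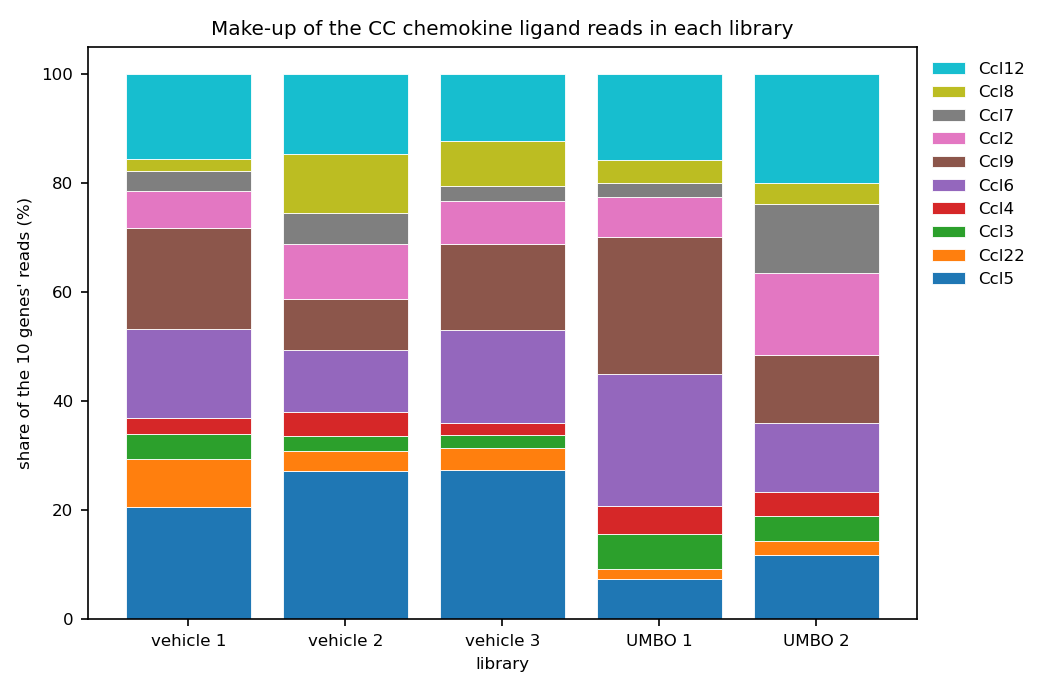
Share (%) of each gene among the reads of the 10 CC chemokine ligand genes in each library; each bar adds up to 100%. The 2 segments at the bottom, Ccl5 and Ccl22, together take 29.4%, 30.9% and 31.3% of the vehicle bars and 9.24% and 14.3% of the UMBO bars.

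Shares of the reads within each library do not depend on the scaling between libraries, and they were compared next. The 10 genes together had 574, 2775 and 1315 counts with vehicle and 2826 and 10781 with UMBO. Ccl5 took 20.6%, 27.2% and 27.3% of them with vehicle, and 7.32% and 11.8% with UMBO. The 95% Wilson intervals of the UMBO libraries (6.42% to 8.34% and 11.2% to 12.4%) were below those of all vehicle libraries, the lowest of which began at 17.5%. These intervals cover counting error only. The share of Ccl22 was also lower in both UMBO libraries, at 1.91% and 2.50%, against 8.89%, 3.68% and 4.03% with vehicle, and the intervals did not overlap. A share is relative to the other 9 genes: in UMBO replicate 2 the CPM of Ccl5 was the highest of all 5 libraries while its share was below that of every vehicle library.

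Ccl3, Ccl4 and Ccl12 took a higher share in both UMBO libraries, but by small margins. The share of Ccl3 was 6.40% and 4.65% with UMBO, against 4.53%, 2.77% and 2.43% with vehicle, and that of Ccl4 was 5.10% and 4.41%, against 2.96%, 4.25% and 2.28%. For Ccl12 it was 15.8% and 19.9%, against 15.5%, 14.7% and 12.2%. The nearest libraries of each gene had overlapping 95% Wilson intervals. The shares of Ccl6 and Ccl9 split the UMBO libraries. Together they made up 49.5% of replicate 1 and 25.1% of replicate 2, with 34.8%, 20.8% and 32.9% under vehicle. The Ccl2, Ccl7, Ccl12 and Ccl8 cluster was the reverse, at 29.8% and 51.6%, beside 28.2%, 41.3% and 31.1%. With 3 libraries against 2, an exact 2-sided permutation test of a share cannot go below 0.1, so the shares are given as a description.

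Levels of different genes were compared per kilobase of exon. On this scale Ccl5 was first in vehicle replicates 2 and 3 (11.7 and 4.42 CPM per kb) and second to Ccl12 in vehicle replicate 1 (1.64 against 2.22). In the UMBO libraries Ccl12 was first, at 9.72 and 61.1 CPM per kb, and Ccl5 stood behind 6 and 3 other ligands, at 2.52 and 20.2. By mean level per kb the vehicle order was Ccl5 (5.91), Ccl12 (5.68), Ccl8 (3.83), Ccl2 (1.73), Ccl6 (1.60), Ccl7 (1.28), Ccl4 (1.18), Ccl9 (0.845), Ccl3 (0.813) and Ccl22 (0.404). The ranges of every pair of neighbors in that order overlapped. With UMBO the order was Ccl12 (35.4), Ccl7 (13.6), Ccl2 (11.9), Ccl5 (11.4), Ccl6 (8.01), Ccl8 (7.60), Ccl4 (6.77), Ccl3 (6.38), Ccl9 (4.74) and Ccl22 (1.02), and only the last pair did not overlap. Ccl22 was the last in all libraries on this scale.

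Receptors of these ligands were measured in the same libraries. Of 14 receptor genes of the CC family, 12 were tested, and 9 were higher and 3 lower with UMBO. At an unadjusted p under 0.05 by edgeR, 1 was higher (Ccr1), against 5.3% of all genes, and 0 were lower, against 2.06%. The median log2FC of the 12 was 0.56. Ccr1, the receptor of Ccl3, Ccl5, Ccl6 and Ccl9, was at 0.535, 1.62 and 0.496 CPM with vehicle and 1.49 and 7.21 CPM with UMBO, a log2FC of 2.30 (SE 0.816) that was 0.76 without UMBO replicate 2. Its groups overlapped, since UMBO replicate 1 was a little lower than vehicle replicate 2. Its adjusted p by edgeR was 0.497.

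Ccr2, the receptor of Ccl2, Ccl7 and Ccl12, was at 1.16, 3.50 and 2.35 CPM with vehicle and 1.90 and 11.7 CPM with UMBO, a log2FC of 1.54 (SE 0.796; adjusted p 0.497 by edgeR). As for its ligands, UMBO replicate 1 was within the vehicle range, and without UMBO replicate 2 the log2FC was -0.30. The receptors of Ccl22 and Ccl8 were at low levels. Ccr4 was at most 0.193 CPM and was not tested, and Ccr8 was at most 0.311 CPM (log2FC 0.26, SE 1.01, and -0.92 without UMBO replicate 2). Ackr1, a scavenger of chemokines on venules and red blood cells, was at 39.0, 40.5 and 32.5 CPM with vehicle and 48.2 and 41.2 CPM with UMBO, but it shares exon sequence with Cadm3, so its level is uncertain. Ackr2, a scavenger that removes CC ligands, had a log2FC of -0.73 (SE 0.551), or -0.32 without UMBO replicate 2. The median of the 12 tested receptors was -0.17 without it. Without vehicle replicate 1 or 3, 0 receptors had an unadjusted p under 0.05 by edgeR, against 1.28% and 1.88% of all genes. The other 7 receptors tested had log2FC values from -0.35 (Ccr6) to 1.61 (Ccr7). Among them Ccr3 was at 1.05 (SE 0.667), and 1.48 without UMBO replicate 2. Ackr4 was at -0.32 (SE 0.382), and -0.13 without that library.

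The remaining CC ligands were divided in direction. Of 14 such genes 13 were matched, 7 were tested, 4 were higher and 3 lower after UMBO, and their median log2FC was 0.27. At an unadjusted p under 0.05 edgeR had 0 higher, against 5.3% of all genes, and 1 lower, against 2.06%. That gene was Ccl27a, an epithelial chemokine also expressed in brain, at 60.7, 49.9 and 43.8 CPM with vehicle and 36.6 and 35.0 CPM with UMBO. Its log2FC was -0.52 (SE 0.194; adjusted p 0.497 by edgeR), or -0.49 without UMBO replicate 2, and it overlaps a gene on the opposite strand by 8 bases. Ccl11, the eosinophil attractant that lies between Ccl7 and Ccl12, was at 0.134, 2.27 and 0.272 CPM with vehicle and 0.796 and 6.26 CPM with UMBO. This is the library pattern of its neighbors, with a log2FC of 1.99 (SE 1.32) that was -0.16 without UMBO replicate 2. Ccl17, which lies beside Ccl22 and shares its receptor Ccr4, had a log2FC of 0.27, and -0.51 without UMBO replicate 2. Without vehicle replicate 1 there were 0 genes of this list at an unadjusted p under 0.05 by edgeR, against 1.28% of all genes. There were 2 when vehicle replicate 2 was left out, against 11.6%.

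CC ligands are induced in microglia and macrophages by Toll-like receptors, TNF, interleukin-1 and interferons, largely by way of NF-kappa-B, AP-1 and STAT factors. Of 37 genes of these pathways 35 were tested, 33 were higher and 2 lower, and their median log2FC of 0.69 was 0.29 without UMBO replicate 2. At an unadjusted p under 0.05 there were 8 of the 35 higher, against the 5.3% of all genes, and 0 lower. The UMBO libraries exceeded all vehicle libraries for 15 of the 35, against the 11.5% of all genes. The receptor Tlr2 was at 2.43, 6.68 and 4.35 CPM with vehicle and 11.7 and 28.3 CPM with UMBO, a log2FC of 2.16 (SE 0.532) that was 1.38 without UMBO replicate 2. Jun, a subunit of AP-1, differed little within either group, at 55.7, 62.9 and 52.9 CPM with vehicle and 90.8 and 93.6 CPM with UMBO (log2FC 0.69, SE 0.163, and 0.67 without UMBO replicate 2).

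The other 6 are given by their log2FC and, in parentheses, its SE. Csf1, a growth factor of microglia, was at 0.68 (0.227), and Ifngr1, an interferon-gamma receptor subunit, at 0.65 (0.258). The TNF receptors Tnfrsf1a and Tnfrsf1b were at 1.47 (0.507) and 1.46 (0.545). Nfkbia, the inhibitor that NF-kappa-B itself induces, was at 1.10 (0.396), and Il6, an inflammatory cytokine, at 3.22 (1.11). Without UMBO replicate 2 the log2FC values of these 6 lay between 0.31 (Ifngr1) and 0.77 (Il6). Il6 and Tnfrsf1b had UMBO replicate 1 within the vehicle range, and the other 4 had both UMBO libraries above it. The adjusted p from edgeR was 0.497 for all 8. Without vehicle replicate 1 or 3, 2 pathway genes were past the unadjusted threshold in either direction, against 1.28% and 1.88% of all genes. There were 19 when vehicle replicate 2 was left out, against 11.6% of all genes.

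**Figure D4:**
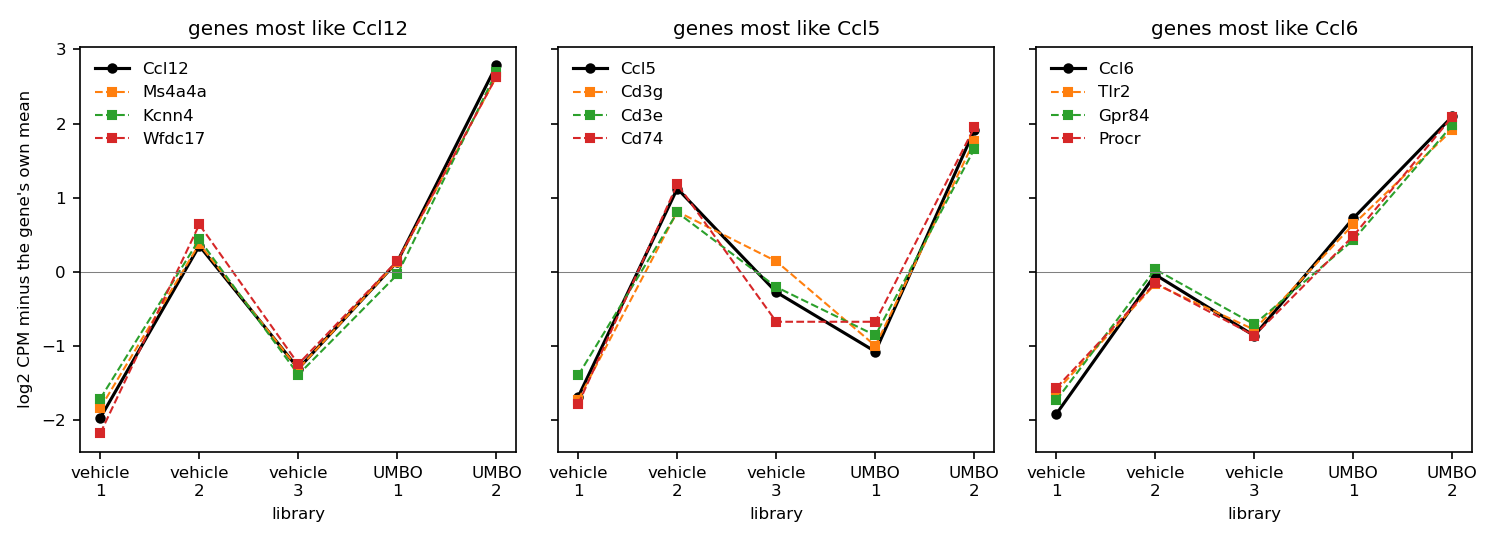
Log2 CPM minus the gene's own mean over the 5 libraries, for Ccl12, Ccl5 and Ccl6 (black) and the 3 other genes closest to each (colors); lines only join the libraries and imply no order. Ccl6 and its 3 closest genes are higher in UMBO replicate 1 than in vehicle replicate 2, Ccl5 and its closest genes lower.

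The genes whose library profile was most like that of a CC ligand were sought for the 3 ligands of highest mean CPM among 16422 genes with a mean CPM of at least 1. The measure was the root mean square difference of the centred log2 CPM over the 5 libraries. For Ccl12 the closest were Ms4a4a, a membrane protein of macrophages (0.0903), Kcnn4, a calcium-activated potassium channel (0.155), and Wfdc17, a small secreted protein of myeloid cells (0.175). For Ccl6 they were Tlr2 (0.178), Gpr84, a receptor of activated myeloid cells for medium-chain fatty acids (0.181), and Procr, the endothelial receptor of protein C (0.197). For Ccl5 they were the T cell receptor subunits Cd3g (0.244) and Cd3e (0.247) and the MHC class II chaperone Cd74 (0.259). Cd3e was at 0.669, 3.16 and 1.56 CPM with vehicle and 0.983 and 5.74 CPM with UMBO. Ccl5 and Cd3e had the same order of the 5 libraries, with vehicle replicate 1 lowest and UMBO replicate 1 next. These are likenesses over 5 libraries that also differ in tissue make-up, and they are given with no test.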

How the data were processed

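Reads were aligned by the authors to GRCm38 (mm10) using STAR 2.7.2a. For each library they deposited a table of raw, unnormalized counts under Ensembl identifiers. Neither the strand setting nor the annotation release is given in the sources used here. Symbols (55394 of 55573 genes) and coordinates are from GENCODE M21, and the share of counts in rows without one was 0.101% or less. Groups and replicate numbers come from the labels of the samples. The study's methods give 6 mice, the deposited record 5, and 5 libraries are analysed here.

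Counts were normalized by TMM and filtered with filterByExpr, and 23592 genes were tested with edgeR's quasi-likelihood test (R 4.3.3, edgeR 4.0.16), adjusted over all of them by Benjamini-Hochberg, with a threshold of 0.05. CPM are TMM-normalized, log2 values used a prior count of 2, and the SD is that between libraries. The SE of a log2FC was worked back from edgeR's test, as its absolute value divided by the square root of the F statistic. DESeq2 1.42.0, the tool named by the study, was an alternative, as were other scalings, other filters, the replicate number as a block and each library left out in turn. The scripts were tested on simulated data, in which DESeq2, with the dispersion of these libraries, called more unchanged genes as changed than edgeR did. The 10 genes, the lists and the alternatives were chosen with earlier results of these data known. Named beside the 10 were tested receptors that bind one of the 10 or scavenge CC ligands, the receptors at either end of the remaining range, genes of the ligand and pathway lists at an unadjusted p under 0.05, neighboring CC ligands and the 3 genes closest in profile to each of the 3 ligands of highest mean CPM. 1 receptor gene is not reported here and was left out of the receptor list. Ccr4, Csf3r, Ly6g, Chil3, Ly6c2, Vcan, Itga4, Cd4 and Fscn1 were singled out after their values were seen. Every pair of libraries differed beyond sampling noise (chi-square per gene of 52.2 or more, where noise gives about 1).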

Additional observations from a re-analysis of the deposited data

How the results depend on the processing

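The 10 CC ligands were all higher under every scaling, filter and test. By edgeR's adjusted p, 0 of the 10 were called, against 2 (Ccl3 and Ccl9) by DESeq2. Over all genes the adjusted count was 0 by edgeR and 39 by DESeq2. The unadjusted count was 1738 of 23592 genes (7.37%) in the main fit. It was 2738 of 40435 by DESeq2 (6.77%) and 4100 of 40435 with no filter (10.1%). Beside these shares, receptors at an unadjusted p under 0.05 numbered 2 by DESeq2 and 3 with no filter in place of 1. Pathway genes numbered 13 by DESeq2 and 17 with no filter in place of 8. The other CC ligands numbered 0 with library size only, against 8.04% of all genes, and 3 with no filter in place of 1. With library size only, 1502 genes were higher and 395 lower at an unadjusted p under 0.05, in place of 1251 and 487, and the median log2FC over the genes tested was 0.13 in place of 0.01. DESeq2 gives no value for the count of groups that do not overlap.

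Leaving out 1 library gave 0 to 7 of the 10 past the adjusted threshold, 3 to 8 past the unadjusted one, 3 to 10 without overlap and a median log2 fold change of 0.53 to 3.29. Leaving out 1 vehicle library gave 0 to 1 receptors, 2 to 19 pathway genes and 0 to 2 other ligands at an unadjusted p under 0.05. The share of all genes past that threshold in these fits was 1.28% to 11.6%. Over all genes it gave 0 to 4543 at the adjusted and 296 to 10165 at the unadjusted threshold, with 217 higher and 215 lower without vehicle replicate 3. Without UMBO replicate 2 the log2FC reversed for Ccl5 (-1.23), Ccl7 (-0.24), Ccl8 (-0.50) and Ccl22 (-0.57). The highest values with 1 library left out were 1.94, 4.96 and 2.43 for Ccl5, Ccl7 and Ccl8 (without vehicle replicate 2) and 2.11 for Ccl22 (without UMBO replicate 1). The cause was not tested, and with 1 UMBO library left its spread is assumed to be that of the vehicle libraries.

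The groups share only the replicate numbers 1 and 2, and nothing says that a number marks a shared animal or day. The deviations of same-numbered libraries from their group means correlated at 0.453 (number 1) and 0.760 (number 2). With 2 UMBO libraries, their deviations are equal and opposite. The correlations are thus not independent and cannot tell whether the numbers mark pairs. With the replicate number as a block, edgeR's adjusted p called 7 of the 10 (Ccl2, Ccl3, Ccl4, Ccl6, Ccl7, Ccl9 and Ccl12) and 2337 genes in all, 6.05% of all as higher. Vehicle replicate 3 has no UMBO library of its number, so the difference in this fit rests on the libraries numbered 1 and 2. The spread used to judge it rests on the same libraries. They leave little to estimate a spread from, so the adjusted p of this fit is uncertain. At an unadjusted p under 0.05 the block gave 9 of the 10, 5 receptors, 26 pathway genes and 4 other ligands. Over all genes it gave 6134, or 26.0% of those tested. Precision is limited by 3 and 2 libraries rather than by depth.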
